A study of Mus musculus with 6 samples.

Results

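The genes described here encode the vacuolar-type proton pump (V-ATPase) and proteins of the lysosome. They were 51 of the 24421 genes of a count table: 26 whose symbol begins with Atp6v or Atp6ap, and 25 lysosomal genes listed by name. *Tcirg1*, the a3 subunit of the pump, is counted with the V-ATPase below, which gives 27 V-ATPase members and 24 lysosomal members.

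Poly(A) RNA was sequenced from lineage-labeled mouse alveolar type 2 (AT2) cells sorted by FACS, with 3 libraries in each of 2 groups. AT2CTRL cells carried Sftpc-CreERT2/+ and R26-tdTomato/+. AT2CAB cells carried Sftpc-CreERT2/+ and, at the *Rosa26* locus, tdTomato on 1 allele and caBmpr1a on the other, so that tamoxifen switched on a constitutively active form of the BMP receptor BMPR1a. Recombination was driven by the *Sftpc* promoter, so it takes place in cells that express this surfactant gene and is kept by their descendants. AT2CTRL mice differed in having no caBmpr1a allele. AT2CTRL replicate 2 and AT2CAB replicate 1 came from animals 16 weeks old, and the other 4 libraries from animals 12 weeks old. The labels do not say how many mice each library holds, so p-values measure the spread between these libraries. From pSmad1/5/8 staining of organoids, the study describes AT2CAB colonies in which only the tdTomato allele appeared recombined, so cells sorted by tdTomato may include some without the active receptor, and their share in these libraries was not measured. The question asked of the members was whether they differed between sorted cells of mice with and without the caBmpr1a allele.

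The V-ATPase couples ATP hydrolysis in its cytosolic V1 sector to proton transport through its membrane V0 sector, and so acidifies lysosomes and related compartments. Several subunits have paralogs of narrower tissue distribution, described mainly in kidney, osteoclasts, epididymis and inner ear. In AT2 cells the lamellar body, the acidic organelle that stores surfactant, is related to lysosomes and carries many of the same proteins.

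Library totals were 22909120, 24490233 and 27915100 counts in AT2CTRL replicates 1, 2 and 3. They were 21554249, 24716504 and 28440227 counts in AT2CAB replicates 1, 2 and 3. At these depths 3 counts, taken as the floor, correspond to 0.105 to 0.139 CPM, the count as a proportion of all counts of its library at a fixed total, and floors cover counting error only. All other CPM values are after TMM scaling between libraries, except where they are said to be unscaled. Levels are given as RPKM, which are TMM-scaled CPM divided by the exon length in kilobases, in the order of replicates 1, 2 and 3.

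The labels were checked against marker genes. *Id1*, a transcriptional target of BMP signaling, had 19.8, 22.3 and 20.6 RPKM in AT2CTRL and 133, 189 and 441 RPKM in AT2CAB. All 4 genes of the BMP response list (*Id1*, *Id2*, *Id3*, *Smad6*) were above every AT2CTRL library in every AT2CAB library. The 8 AT2 markers, of which *Sftpc* was the most abundant, were detected in all 6 libraries, and 4 of them (*Sftpa1*, *Lamp3*, *Slc34a2*, *Etv5*) were lower in every AT2CAB library than in any AT2CTRL library. Their summed level was 125400, 115200 and 112200 CPM in AT2CTRL and 107300, 99430 and 96360 CPM in AT2CAB, all AT2CAB libraries below all AT2CTRL libraries. This separation rested on the scaling: unscaled, the sums were 122100, 109700 and 105600 CPM in AT2CTRL and 108600, 103700 and 104100 CPM in AT2CAB, which overlapped, and *Sftpa1* was the 1 marker that was lower in every AT2CAB library. In bulk RNA, fewer AT2 cells and less RNA per cell cannot be told apart, and the part of the AT2 markers in the values below was not tested.

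A pair of libraries stood apart from the rest. Reads on 4 Y-linked genes summed to 176 CPM in AT2CTRL replicate 1 and 146 CPM in AT2CAB replicate 3, and to 0 in the other 4 libraries. Each group thus holds 1 such library, so counts and fold changes that move with them are given with all 6 libraries and with the 4 libraries that lack these reads.

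Of the 51 members, 48 passed the expression filter and were tested. A gene was called where the adjusted p of edgeR's quasi-likelihood test was under 0.05 and the log2 fold change of AT2CAB against AT2CTRL was over 1 in either direction. Of the 48, 1 was called lower, *Atp6v0a4*, where 0.012% of all 16723 tested genes were called lower. In the higher direction 0 members were called by edgeR, where 0.227% of all genes were; 0 had an unadjusted p under 0.05 in that direction, and DESeq2 and limma-voom called 0. By the adjusted p alone the edgeR counts were again 1 lower and 0 higher, beside 0.012% and 0.239% of all genes. DESeq2 gave 46 members an adjusted p and put 2 of them under 0.05, both lower (*Atp6v0a4* and *Ctsc*), beside 0.644% of its genes lower and 1.45% higher.

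With an unadjusted edgeR p below 0.05 there were 5 members on the lower side, *Atp6v0a4* and 4 that were not called, and 0 on the higher, which is 10.4% of the tested members lower, beside 5.05% of all tested genes lower and 4.62% higher. The AT2CAB libraries lay below all AT2CTRL libraries for 18 members, *Atp6v0a4* among them, and above them for 3, or 37.5% and 6.25% of the tested members, beside 10.1% and 7% of all genes. In the 4 libraries without Y-linked reads, a selection made after seeing the data, 23 members were lower without overlap and 10 higher, or 47.9% and 20.8%, beside 26.5% and 19.5% of all genes. Overlap also depended on the scaling. With unscaled levels, likewise chosen after seeing the data, 5 members were lower without overlap and 7 higher, or 10.4% and 14.6%, beside 3.91% and 12.6% of all genes. The 5 (*Atp6v1c2*, *Atp6v1g1*, *Atp6v0a4*, *Ctsc*, *Gusb*) were among the 18, and the 3 that were higher after TMM scaling were among the 7. Below, overlap between groups refers to TMM-scaled levels.

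The median log2 fold change was -0.115 over the 24 tested V-ATPase members and -0.0727 over the 24 lysosomal members, beside -0.0096 over all tested genes. Scaling by library size only moved the median of all genes to 0.121; the medians then became 0.0121 and 0.0571, with the direction of both turned, but relative to all genes they stayed at -0.108 and -0.0634. Under upper-quartile scaling the V-ATPase median was -0.0464 and the lysosomal median 0.000901, with all genes at 0.0642. With the 4 libraries the medians were -0.0374 and -0.028, beside 0.0164 over all genes. Of the 48 members, 8 changed the sign of their fold change under library size scaling (*Atp6v1d*, *Atp6v1f*, *Atp6v0a2*, *Atp6v0e*, *Atp6ap1*, *Ctsb*, *Glb1*, *Neu1*) and 7 with the 4 libraries (*Atp6v1d*, *Atp6v1f*, *Atp6v1g2*, *Atp6v0e*, *Atp6ap1*, *Gla*, *Glb1*). Taken library by library, against the AT2CTRL mean of each gene, the V-ATPase median was 0.15, -0.10 and -0.06 in AT2CTRL and -0.08, -0.13 and -0.20 in AT2CAB, so that the groups overlapped. For the lysosomal members it was -0.014, -0.014 and 0.025 in AT2CTRL and -0.031, -0.115 and -0.163 in AT2CAB. The same median over all genes was 0.033, 0.0073 and -0.014 in AT2CTRL and -0.0018, -0.044 and 0.011 in AT2CAB. Relative to it the lysosomal members were at -0.05, -0.02 and 0.04 in AT2CTRL and -0.03, -0.07 and -0.17 in AT2CAB, so that AT2CAB replicate 1 lay within the range of AT2CTRL and the groups overlapped.

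**Figure D1:**
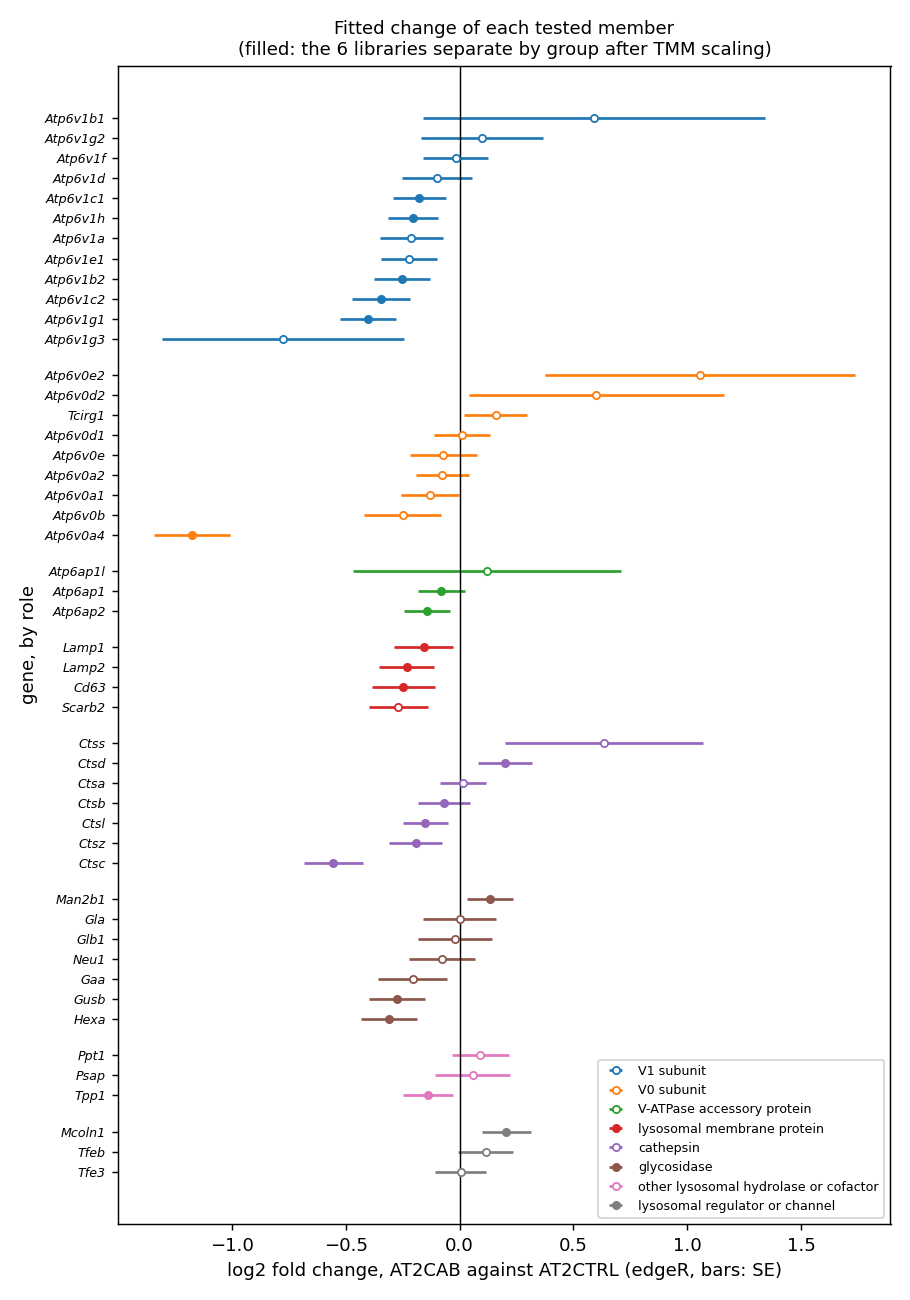
Log2 fold change (x axis) of each of the 48 tested members (y axis), grouped by role, with bars of 1 standard error from edgeR over 3 libraries a group; filled points mark genes whose 6 libraries separate by group after TMM scaling. *Atp6v0a4*, at -1.18, lies farthest to the left, and all other members with filled points lie between -0.56 and 0.21.

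The V1 sector holds the catalytic and stalk subunits of the pump. Of its 13 members 12 were tested, 10 with a log2 fold change below 0 and 2 above, where 51.2% of all tested genes were below 0, with a median of -0.208. Under library size scaling the counts were 8 and 4, where 31% of all genes were below 0, and with the 4 libraries they were 9 and 3, with a median of -0.0969. Summed over the 13 genes, the V1 level was 1008, 876 and 874 RPKM in AT2CTRL and 805, 766 and 727 RPKM in AT2CAB. AT2CTRL replicate 1, with Y-linked reads, was the highest of these, and the groups did not overlap, also when unscaled.

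*Atp6v1c2*, a C subunit isoform of narrow tissue distribution that links stalk to V0, had the highest mean level of any V1 gene. Its level was 244, 204 and 214 RPKM in AT2CTRL and 187, 171 and 161 RPKM in AT2CAB. All AT2CAB libraries were below all AT2CTRL libraries. edgeR fitted a log2 fold change of -0.35 (standard error 0.13, edgeR Benjamini-Hochberg adjusted p = 0.445), and -0.19 with the 4 libraries. The ubiquitous paralog *Atp6v1c1* was far lower per kilobase, at 16.9 to 22.0 RPKM, so that *Atp6v1c2* made up 91.7%, 90.3% and 91.2% of the C subunit level in AT2CTRL and 90.2%, 89.6% and 90.5% in AT2CAB. These shares overlapped between the groups with all 6 libraries and were lower in AT2CAB by a small margin with the 4. The gene lies on chromosome 12 of mm10 from 17284721 to 17324730, and 50 of its 1597 exon bases overlap *Pdia6*.

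*Atp6v1g1*, the widely expressed G subunit of the peripheral stalk, had 230, 189 and 193 RPKM in AT2CTRL and 158, 150 and 156 RPKM in AT2CAB. The groups did not overlap, and the AT2CAB libraries varied little, with a mean of 155 ± 3.81 RPKM (SD, n = 3). Its log2 fold change was -0.40 (standard error 0.12), with an adjusted p of 0.352 in edgeR after Benjamini-Hochberg adjustment, and -0.28 with the 4 libraries. The G isoforms of narrower distribution were low. *Atp6v1g2*, described mainly in neurons, had 2.94, 2.58 and 2.75 RPKM in AT2CTRL and 2.55, 2.57 and 3.72 RPKM in AT2CAB, and *Atp6v1g3*, described mainly in kidney, had 1.43, 0.954 and 2.89 RPKM and 1.22, 1.36 and 0.517 RPKM. The levels of both overlapped between the groups: AT2CAB replicate 3 was highest for *Atp6v1g2*, and AT2CTRL replicate 3 for *Atp6v1g3*. The *Atp6v1g2* log2 fold change of 0.10 was -0.07 without AT2CAB replicate 3 and -0.03 with the 4 libraries. As a share of the G subunit level per kilobase, *Atp6v1g2* held 1.25%, 1.34% and 1.38% in AT2CTRL and 1.58%, 1.67% and 2.33% in AT2CAB. These shares, which were not tested, were higher in every AT2CAB library, beside a lower *Atp6v1g1* level.

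The remaining V1 isoforms of narrow distribution had few counts. *Atp6v1b1*, the B subunit of kidney and inner ear, had 9, 12 and 6 counts in AT2CTRL and 15, 4 and 27 counts in AT2CAB. Per kilobase this was 0.0726% to 0.415% of the B subunit level, the rest falling on its paralog *Atp6v1b2*. *Atp6v1e2*, the testis E subunit, had 11, 5 and 10 counts in AT2CTRL and 1, 7 and 46 counts in AT2CAB and did not pass the filter. In both cases AT2CAB replicate 3 was highest and the groups overlapped. Of the other tested V1 genes, *Atp6v1b2*, *Atp6v1c1* and *Atp6v1h* were lower without overlap, with log2 fold changes of -0.25, -0.18 and -0.20 (-0.14, -0.05 and -0.13 with the 4 libraries), and *Atp6v1a*, *Atp6v1d*, *Atp6v1e1* and *Atp6v1f* overlapped, at -0.21, -0.10, -0.22 and -0.02. These became -0.14, 0.09, -0.06 and 0.22 with the 4 libraries, and *Atp6v1a* was then lower and *Atp6v1f* higher without overlap.

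**Figure D2:**
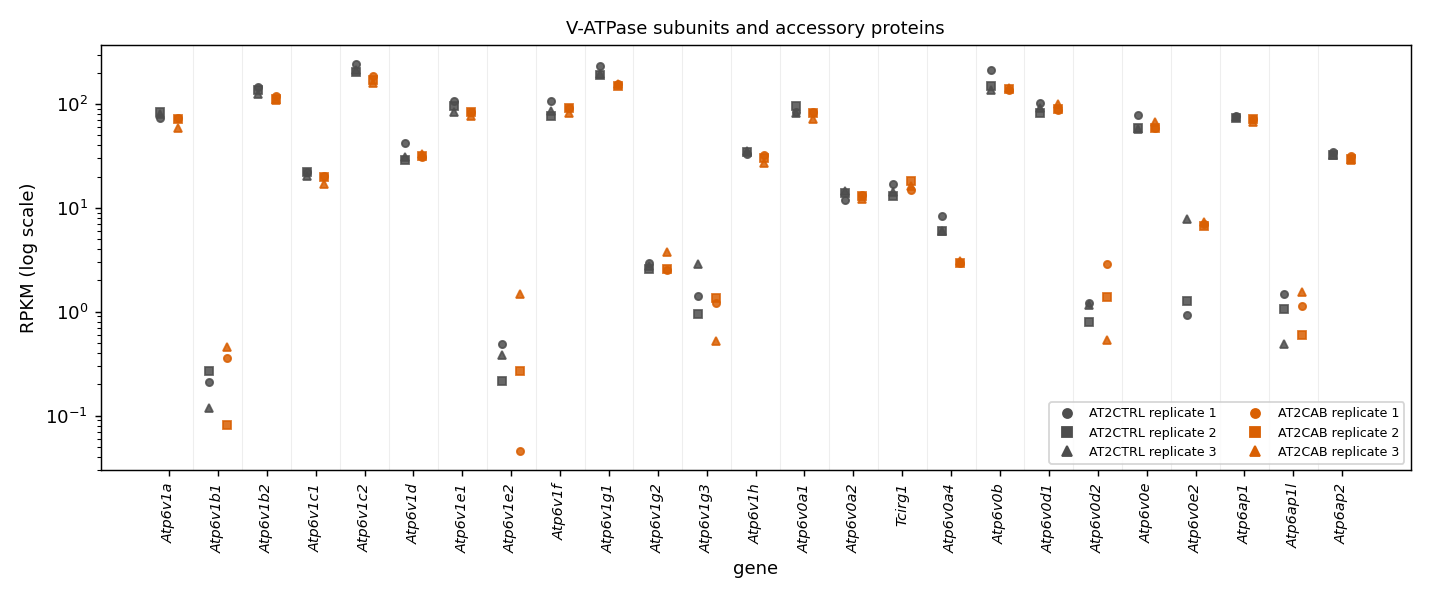
Level in RPKM (y axis, log scale) of 25 V-ATPase members (x axis) in each library, with AT2CTRL in gray and AT2CAB in orange and a symbol for each replicate; *Atp6v0c* and its pseudogene are left out because almost all of their libraries are at 0. *Atp6v1c2*, *Atp6v1g1* and *Atp6v0b* are the highest, and *Atp6v0a4* is lower in all 3 AT2CAB libraries.

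The V0 sector is the membrane part through which protons pass. Of its 10 members 9 were tested, 5 with a log2 fold change below 0 and 4 above (3 and 6 under library size scaling, 4 and 5 with the 4 libraries). Of the 9, 1, *Atp6v0a4*, separated the groups. That is 11.1% lower without overlap, beside 10.1% of all genes. With the 4 libraries 2 were lower without overlap and 2 higher, or 22.2% each, beside 26.5% and 19.5% of all genes. The summed V0 level was 518, 422 and 411 RPKM in AT2CTRL and 412, 413 and 421 RPKM in AT2CAB. AT2CTRL replicate 1 was the highest library, and the other 5 were close to each other. Unscaled, the sums per kilobase were 505, 402 and 387 in AT2CTRL and 417, 431 and 455 in AT2CAB, so that the AT2CAB libraries lay above AT2CTRL replicates 2 and 3 and below replicate 1.

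*Atp6v0a4* encodes the a4 isoform of the large V0 subunit, best known from acid-secreting cells of the kidney, inner ear and epididymis. It had 8.37, 6.04 and 5.98 RPKM in AT2CTRL and 2.94, 2.96 and 3.10 RPKM in AT2CAB. The raw counts were 613, 463 and 516 in AT2CTRL and 211, 251 and 313 in AT2CAB. The AT2CAB libraries were close to each other, at 3.00 ± 0.0853 RPKM (SD, n = 3), and all lay below the lowest AT2CTRL library, in a group at 6.80 ± 1.36 RPKM (SD, n = 3). The log2 fold change was -1.18 (standard error 0.17, edgeR Benjamini-Hochberg adjusted p = 0.0393), lower in 3 of 3 AT2CAB libraries, and DESeq2 gave -1.16 with a Benjamini-Hochberg adjusted p of 2.93e-06.

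The call of *Atp6v0a4* rested on all 6 libraries. Without AT2CTRL replicate 1, 2 or 3 the edgeR Benjamini-Hochberg adjusted p was 0.0831, 0.136 and 0.11, and without AT2CAB replicate 1, 2 or 3 it was 0.0946, 0.226 and 0.092, with log2 fold changes of -1.26 to -1.01. The adjusted p was also above 0.05 with limma-voom (0.0779), edgeR with upper-quartile scaling (0.0744), edgeR with library size only (0.07), edgeR with a filter of 50 counts (0.0563) and edgeR with age as a covariate (0.0648), all after Benjamini-Hochberg adjustment. The edgeR Benjamini-Hochberg adjusted p stayed under 0.05 with no expression filter (0.0167), with halved counts (0.0499) and with reads on Y-linked genes as a covariate (0.00451). With the 4 libraries without Y-linked reads the log2 fold change was -0.99 (edgeR Benjamini-Hochberg adjusted p = 0.0312), just short of the fold threshold. Between the libraries with Y-linked reads, 1 against 1 and so without a test, the log2 ratio of AT2CAB to AT2CTRL was -1.43. Over all alternatives the log2 fold change lay between -1.26 and -0.99.

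The a subunit has 4 isoforms that take the same place in the pump, and shares among them do not depend on the scaling between libraries. *Atp6v0a4* made up 6.84%, 4.71% and 5.16% of their summed RPKM in AT2CTRL and 2.54%, 2.55% and 3.00% in AT2CAB. Every AT2CAB library was below every AT2CTRL library, with a mean difference of -2.87 percentage points. The exact permutation test over libraries gave p = 0.1 (two-sided, n = 3 a group), which is the smallest p that 3 against 3 allows. Of the isoform shares only this one was tested. The level of *Atp6v0a4* already separated the groups in the same counts, so the test is not independent of its call. With the 4 libraries the difference was -2.39 percentage points (exact permutation p = 0.333, the smallest that these allow), and with counts not divided by length it was -2.35 percentage points (exact permutation p = 0.1). The main isoform, *Atp6v0a1*, held 69.4%, 74.1% and 70.1% in AT2CTRL and 73.1%, 70.5% and 69.5% in AT2CAB. *Tcirg1* (a3), known from osteoclasts, held 14.0%, 10.2% and 12.3% and then 12.9%, 15.8% and 15.8%, and *Atp6v0a2* held 9.70% to 12.5% over all libraries. For these 3 isoforms the groups overlapped, although with the 4 libraries the *Tcirg1* share was higher without overlap.

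**Figure D3:**
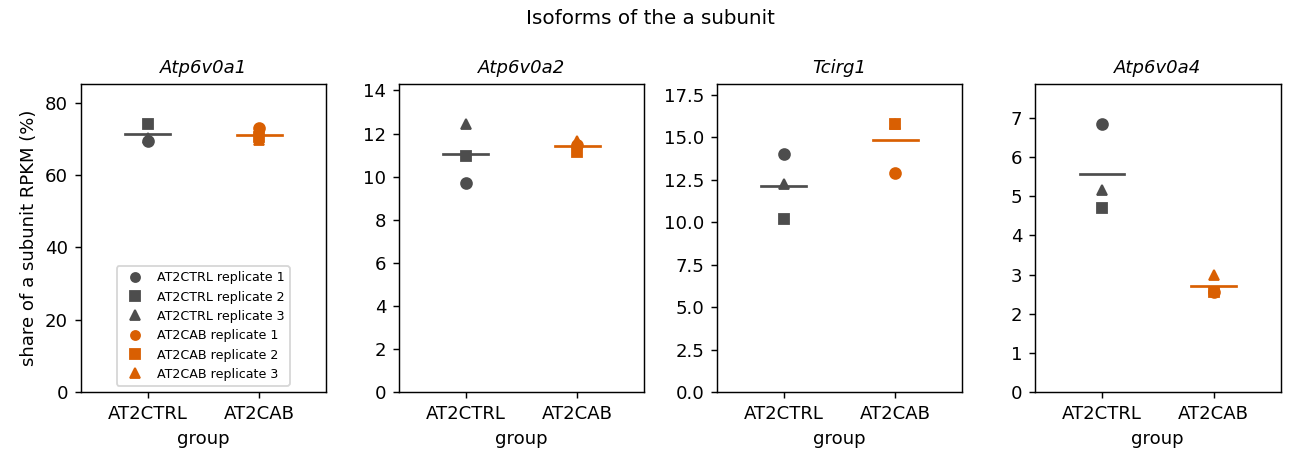
Share of each of the 4 a subunit isoforms in their summed RPKM (y axis, percent, from 0, with a scale of its own in each panel) by group (x axis), 1 point a library and a line at the group mean. The *Atp6v0a4* share is 4.71% to 6.84% in AT2CTRL and 2.54% to 3.00% in AT2CAB, while the other isoforms overlap between groups.

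*Atp6v0a4* lies on the minus strand of chromosome 6 of mm10 from 38048483 to 38124586, and 259 of its 3285 exon bases (7.88%) overlap *D630045J12Rik* on the same strand, where reads were left out of the counts. *D630045J12Rik* itself, named here for its position, had 1.18, 1.82 and 2.08 RPKM in AT2CTRL and 1.62, 1.52 and 1.16 RPKM in AT2CAB, so that the groups overlapped. It was lower without overlap with the 4 libraries, at a log2 fold change of -0.28. *Svopl*, a neighbor on the same strand that shares 0 exon bases with *Atp6v0a4*, overlapped between the groups. Its log2 fold change was -0.20 (standard error 0.54), and 0.19 with the 4 libraries. *Tmem213*, singled out after its values were seen, lies within the *Atp6v0a4* gene on the opposite strand and shares 0 exon bases with it. It had 17.3, 12.5 and 13.0 RPKM in AT2CTRL and 7.61, 8.49 and 2.83 RPKM in AT2CAB. All AT2CAB libraries were below all AT2CTRL libraries, with a log2 fold change of -1.18 (standard error 0.40, edgeR Benjamini-Hochberg adjusted p = 0.405). AT2CAB replicate 3 was well below the rest: with the 4 libraries without Y-linked reads the log2 fold change was -0.63, and between the libraries with these reads the log2 ratio was -2.61. The counting did not use strand, so reads from the 2 strands at this locus cannot be told apart.

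Markers of ionocytes, an airway cell type rich in V-ATPase, had few counts. *Foxi1*, their defining transcription factor, was at 0 in all 6 libraries. The summed level of the 3 ionocyte markers, of which *Ascl3* was the most abundant, was 0.717, 0.943 and 0.647 CPM in AT2CTRL and 1.56, 1.13 and 1.43 CPM in AT2CAB. *Stap1*, the remaining marker, had 3, 8 and 4 counts in AT2CTRL and 22, 20 and 15 counts in AT2CAB, and *Ascl3* had 13, 14 and 13 counts and then 12, 9 and 29 counts. *Stap1* was thus higher in every AT2CAB library, and for *Ascl3* the groups overlapped.

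Among the V0 genes that could be measured, *Atp6v0b*, a subunit of the proteolipid ring, had the highest mean level. It had 213, 150 and 137 RPKM in AT2CTRL and 138, 141 and 142 RPKM in AT2CAB. AT2CTRL replicate 1 stood well above the other 5 libraries, and the groups overlapped. The fit gave a log2 change of -0.25 (standard error 0.17, edgeR Benjamini-Hochberg adjusted p = 0.667), and -0.0077 with the 4 libraries without Y-linked reads.

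*Atp6v0d2*, the d subunit of osteoclasts and macrophages, had 1.22, 0.788 and 1.16 RPKM in AT2CTRL and 2.91, 1.38 and 0.533 RPKM in AT2CAB. AT2CAB replicate 1 was the highest library and AT2CAB replicate 3 the lowest, so the groups overlapped. The log2 fold change of 0.60 (standard error 0.56, edgeR Benjamini-Hochberg adjusted p = 0.754) was -0.10 without AT2CAB replicate 1, 1.06 without AT2CAB replicate 3 and 1.16 with the 4 libraries, which did not overlap. Its paralog *Atp6v0d1* held 96.8% to 99.5% of the d subunit level in all 6 libraries.

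The e subunit gene *Atp6v0e2*, chosen after its values were seen, had 0.929, 1.26 and 7.89 RPKM in AT2CTRL and 7.05, 6.71 and 7.36 RPKM in AT2CAB. AT2CTRL replicates 1 and 2 were low and AT2CTRL replicate 3 was the highest of all, above each AT2CAB library. The log2 fold change was 1.06 (standard error 0.68, edgeR Benjamini-Hochberg adjusted p = 0.65) with all libraries and 0.61 with the 4 libraries. Without AT2CTRL replicate 3 it was 2.68 with an edgeR Benjamini-Hochberg adjusted p of 0.0345, the 1 fit in which a member passed both thresholds in the higher direction. *Atp6v0e* held the larger share of the e subunit level, 98.8%, 97.9% and 88.0% in AT2CTRL and 89.3%, 89.8% and 90.2% in AT2CAB.

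*Atp6v0c*, the main proteolipid of the ring, could not be measured from these counts. It had 0 counts in 5 libraries and 2 in AT2CAB replicate 3, and *Atp6v0c-ps2* had 0 in all 6. Of its exon sequence, 1117 of the 1151 bases (97%) overlap *Atp6v0c-ps2* on the same strand, and reads on overlapping genes were not counted, so a count of 0 says nothing of its level.

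The accessory proteins *Atp6ap1* and *Atp6ap2* serve the assembly and trafficking of the pump. *Atp6ap1*, the higher of them, had 76.9, 73.3 and 74.5 RPKM in AT2CTRL and 72.3, 72.6 and 67.7 RPKM in AT2CAB. The groups did not overlap. edgeR fitted a log2 fold change of -0.08 (standard error 0.10, edgeR Benjamini-Hochberg adjusted p = 0.835), and its sign turned under library size scaling (0.05) and with the 4 libraries (0.0044). By the levels above, the AT2CAB libraries were still below the AT2CTRL libraries among these 4, so the fold and the overlap differ in direction there. *Atp6ap2* was also lower without overlap, at a log2 fold change of -0.14 (-0.06 with the 4 libraries), and *Atp6ap1l* averaged 1.05 RPKM with overlapping groups.

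Among the lysosomal membrane proteins, *Lamp1*, *Lamp2*, *Cd63* and *Scarb2* all had log2 fold changes below 0, with a median of -0.24, and the direction of all 4 held under library size only, upper-quartile scaling and DESeq2 and with the 4 libraries, where the median was -0.108. 0 of them were called by edgeR, DESeq2 or limma-voom, and 0 had an unadjusted edgeR p under 0.05. *Lamp1*, the major glycoprotein of the lysosomal membrane and the member with the highest mean RPKM over the 6 libraries, had 329, 333 and 346 RPKM in AT2CTRL and 325, 307 and 271 RPKM in AT2CAB. The groups did not overlap, although AT2CAB replicate 1 came close to AT2CTRL replicate 1. In every AT2CTRL library *Ctsc* was above *Lamp1*. The fit gave a log2 change of -0.16 (standard error 0.13, edgeR Benjamini-Hochberg adjusted p = 0.72), -0.07 with the 4 libraries and -0.05 without AT2CAB replicate 3. The log2 fold changes of the other 3 genes were between -0.27 and -0.23 (-0.30 to -0.08 with the 4 libraries), and of them *Scarb2* overlapped between the groups with all 6 libraries and was lower without overlap with the 4.

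The 7 cathepsins are lysosomal proteases, 4 with a log2 fold change below 0 and 3 above, and 3 below and 4 above under upper-quartile or library size scaling. *Ctsc*, a dipeptidyl peptidase that activates serine proteases of immune cells, was the most abundant of them. It had 349, 369 and 373 RPKM in AT2CTRL and 270, 244 and 228 RPKM in AT2CAB. All AT2CAB libraries were well below all AT2CTRL libraries, with means of 364 ± 12.9 and 247 ± 21.4 RPKM (SD, n = 3 each). The log2 fold change was -0.56 (standard error 0.13, edgeR Benjamini-Hochberg adjusted p = 0.211), which did not pass the threshold, and DESeq2 gave -0.54 with a Benjamini-Hochberg adjusted p of 0.0064. With reads on Y-linked genes as a covariate the edgeR Benjamini-Hochberg adjusted p was 0.026, and with the 4 libraries it was 0.0607 at a log2 fold change of -0.50. The gene lies on chromosome 7 of mm10 from 88278093 to 88310875.

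*Ctsd*, the main aspartic protease of lysosomes, was among the 3 members higher in AT2CAB without overlap. It had 167, 157 and 150 RPKM in AT2CTRL and 193, 183 and 168 RPKM in AT2CAB. AT2CAB replicate 3 lay just above AT2CTRL replicate 1, and both carry Y-linked reads. edgeR fitted a log2 fold change of 0.20 (standard error 0.12, edgeR Benjamini-Hochberg adjusted p = 0.631), and 0.33 with the 4 libraries. *Ctsb*, *Ctsl* and *Ctsz* were lower without overlap, at -0.07, -0.15 and -0.19 (-0.04, -0.09 and -0.12 with the 4 libraries), and *Ctsa* overlapped at 0.01, and with the 4 libraries was higher without overlap at 0.11. With unscaled levels *Ctsb* was higher in every AT2CAB library. Of the exon bases, 22.6% of *Ctsa* and 16.3% of *Ctsb* overlap other genes, so that their levels are undercounted.

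*Ctss*, a cathepsin of antigen-presenting cells chosen after its values were seen, had 6.56, 5.61 and 7.06 RPKM in AT2CTRL and 17.3, 8.56 and 4.16 RPKM in AT2CAB. AT2CAB replicate 1 was the highest library and AT2CAB replicate 3 the lowest, as for *Atp6v0d2*. The groups overlapped, and over the 4 libraries *Ctss* was higher without overlap at a log2 fold change of 1.05 (0.64 with all 6). The summed macrophage markers had the same order within AT2CAB, as did 7 of the 9 markers taken singly. Of the 12 symbols of that list 9 were in the table, and their summed level was 80.4, 84.3 and 90.2 CPM in AT2CTRL and 206, 117 and 61.5 CPM in AT2CAB. *Chil3* was the most abundant, 2 of the 9 (*Adgre1*, *Siglecf*) were above every AT2CTRL library in every AT2CAB library, and none of the 9 was at 0 in all libraries. *Cd68* alone had a log2 fold change below 0, at -0.12 (0.19 with the 4 libraries). It was highest in AT2CTRL replicate 1, and its groups overlapped. The part of macrophage RNA in the *Ctss* and *Atp6v0d2* values was not tested.

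**Figure D4:**
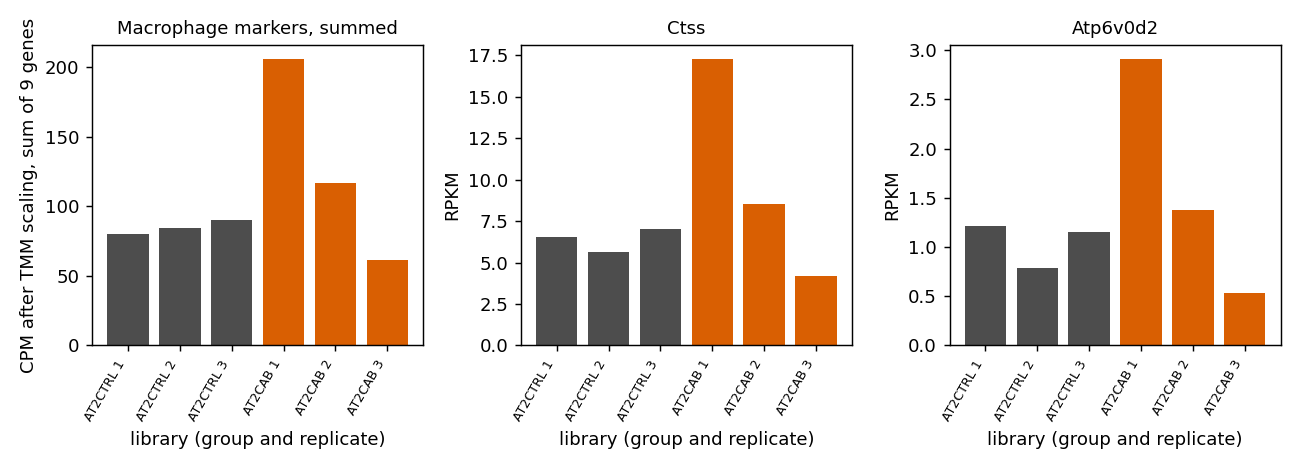
Summed level of 9 macrophage markers in TMM-scaled CPM and levels of *Ctss* and *Atp6v0d2* in RPKM (y axes, from 0) in each library (x axis), with AT2CTRL in gray and AT2CAB in orange. All 3 panels have AT2CAB replicate 1 highest and AT2CAB replicate 3 lowest.

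Other cell types were also measured. The 6 endothelial markers, led by *Cdh5*, summed to 199, 459 and 314 CPM in AT2CTRL and 395, 654 and 447 CPM in AT2CAB, with overlap between the groups. The 6 mesenchymal markers, led by *Col3a1*, summed to 134, 180 and 165 CPM in AT2CTRL and 223, 275 and 239 CPM in AT2CAB, higher in every AT2CAB library. Taken singly, 3 of them (*Col1a1*, *Col1a2*, *Col3a1*) were higher in every AT2CAB library, and *Pdgfra*, *Pdgfrb* and *Dcn* overlapped between the groups. The 5 airway markers, led by *Scgb1a1* and with *Krt5* at 0, summed to 517, 647 and 426 CPM and then 460, 673 and 650 CPM, and the 5 AT1 markers, led by *Ager*, to 2633, 2109 and 1650 CPM and then 1940, 2145 and 1951 CPM. The sums overlapped between the groups for both of these lists. Taken singly, *Foxj1* of the airway markers was higher in every AT2CAB library. Of the AT1 markers *Aqp5* was lower in every AT2CAB library, at a log2 fold change of -0.53 (-0.36 with the 4 libraries). *Rtkn2* was at 0.84 (0.81 with the 4 libraries) and overlapped between the groups, as did the other AT1 markers. The part of these cell types in the values of the members was not tested.

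Glycosidases remove sugars from glycoproteins and glycolipids in the lysosome. Of the 7, 5 had a log2 fold change below 0 and 2 above, and 3 and 4 under library size scaling. *Gaa*, which degrades glycogen, was the highest, at 65.7, 76.0 and 74.1 RPKM in AT2CTRL and 70.9, 65.3 and 50.8 RPKM in AT2CAB. The groups overlapped, with AT2CTRL replicate 1 the lowest of its group and AT2CAB replicate 3 the lowest of all. A log2 fold change of -0.21 was fitted (standard error 0.15, edgeR Benjamini-Hochberg adjusted p = 0.687), -0.11 with the 4 libraries, which did not overlap, and -0.04 without AT2CAB replicate 3.

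*Hexa*, a beta-hexosaminidase subunit, had 58.8, 55.2 and 49.3 RPKM in AT2CTRL and 48.4, 43.6 and 39.7 RPKM in AT2CAB. The highest AT2CAB library lay just below the lowest AT2CTRL library, so the groups did not overlap. For *Hexa* the log2 fold change was -0.31 (standard error 0.12) with an edgeR Benjamini-Hochberg adjusted p of 0.473, and -0.15 with the 4 libraries. *Man2b1*, a lysosomal alpha-mannosidase, had 16.8, 17.0 and 17.8 RPKM in AT2CTRL and 18.4, 20.02 and 18.2 RPKM in AT2CAB. All AT2CAB libraries were above all AT2CTRL libraries by a small margin, with a log2 fold change of 0.13 (standard error 0.10, edgeR Benjamini-Hochberg adjusted p = 0.705). *Gusb* was lower without overlap at -0.27 (-0.16 with the 4 libraries), and *Gla*, *Glb1* and *Neu1* overlapped between -0.08 and 0.00012 (-0.02 to 0.09 with the 4 libraries).

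Of the other hydrolases and cofactors, *Psap*, the precursor of the saposins that help degrade sphingolipids, was the highest. It had 59.4, 65.5 and 58.7 RPKM in AT2CTRL and 78.1, 62.4 and 50.6 RPKM in AT2CAB. AT2CAB replicates 1 and 3 held the highest and the lowest value of all, so the groups overlapped. The log2 fold change of 0.06 (standard error 0.16, edgeR Benjamini-Hochberg adjusted p = 0.925) was -0.09 without AT2CAB replicate 1, 0.24 without AT2CAB replicate 3 and 0.21 with the 4 libraries. *Tpp1* was lower without overlap at a log2 fold change of -0.14 (-0.08 with the 4 libraries), and *Ppt1* overlapped at 0.09, and with the 4 libraries was higher without overlap at 0.14.

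**Figure D5:**
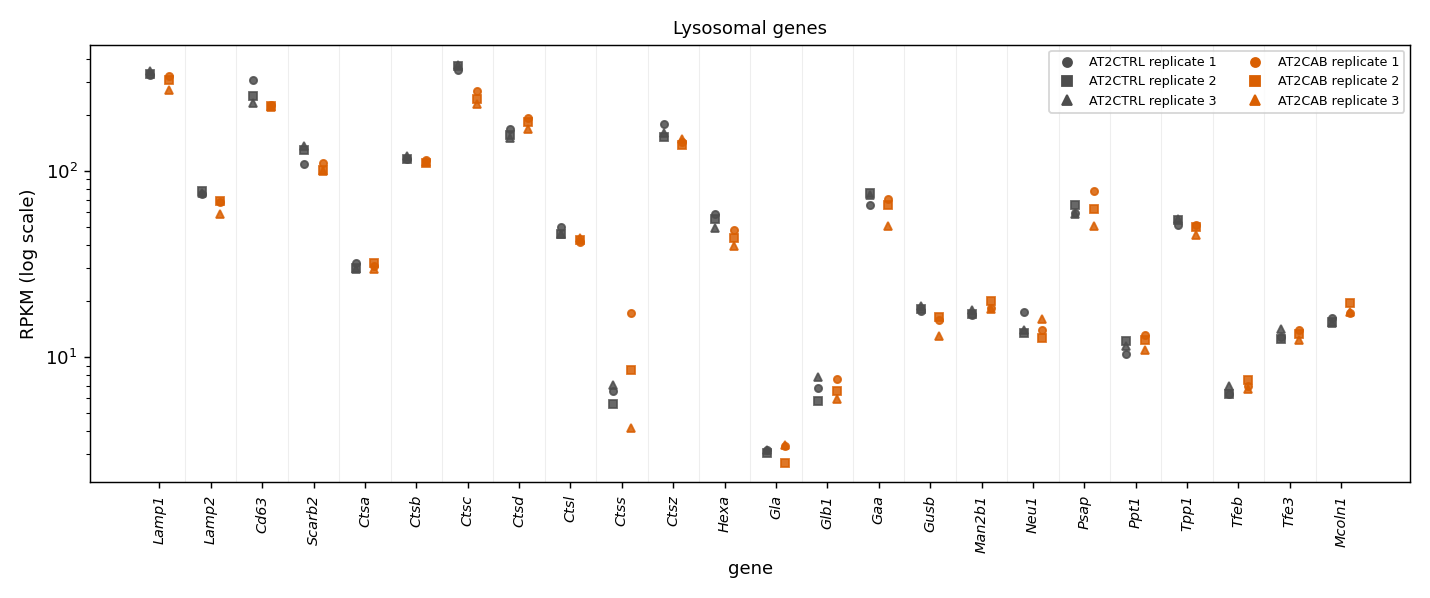
Level in RPKM (y axis, log scale) of the 24 lysosomal members (x axis) in each library, with AT2CTRL in gray and AT2CAB in orange and a symbol for each replicate. *Lamp1* and *Ctsc* are the highest, *Ctsc* lies lower in all 3 AT2CAB libraries, and *Ctss* spreads from 4.16 to 17.3 RPKM within AT2CAB.

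The regulators comprise *Tfeb* and *Tfe3*, transcription factors of lysosomal genes, and *Mcoln1*, a cation channel of the lysosomal membrane. All 3 log2 fold changes were above 0, with a median of 0.114, although that of *Tfe3* was close to 0 and changed sign in several other fits. 0 of them were called by edgeR, DESeq2 or limma-voom, and 0 had an unadjusted edgeR p under 0.05. *Mcoln1* had 16.3, 15.5 and 15.3 RPKM in AT2CTRL and 17.2, 19.5 and 17.5 RPKM in AT2CAB. All AT2CAB libraries lay above all AT2CTRL libraries. The fit gave a log2 change of 0.21 (standard error 0.11, edgeR Benjamini-Hochberg adjusted p = 0.598), and 0.29 with the 4 libraries. *Tfeb* and *Tfe3* overlapped between the groups, at 0.11 and 0.0041. They were at 0.16 and 0.07 with the 4 libraries, and *Tfeb* was higher without overlap.

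TFEB and TFE3 bind an E-box, CACGTG, that in many lysosomal promoters lies in the longer palindrome TCACGTGA. Both motifs read the same on either strand, and TCACGTGA contains CACGTG. RefSeq promoters of 300 bases (GRCm38.p6) were at hand for 42 of the 51 members. Their layout, 250 bases before the start site and 50 from it on, was read from the most common offset to the RefSeq gene start. For 29 members a promoter lay at that offset. CACGTG lay in a promoter of 12 of the 42 (28.6%), beside 8.09% of the 27025 genes with a promoter. TCACGTGA lay in 7 of the 42 (16.7%), beside 1.12% of all genes. The 7 are shown with 11 bases on either side, 5′ to 3′ on the strand of the gene, and with the motif in capitals, because they let the change of members with the motif be set beside the others:
Atp6v1a, chr16:44139373-44139402, minus strand: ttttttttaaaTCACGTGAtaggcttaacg
Atp6v0d1, chr8:105566050-105566079, minus strand: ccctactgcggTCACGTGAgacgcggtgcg
Atp6v0e, chr17:26676387-26676416, plus strand: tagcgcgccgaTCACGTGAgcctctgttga
Ctsa, chr2:164833749-164833778, plus strand: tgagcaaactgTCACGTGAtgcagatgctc
Ctsd, chr7:142387908-142387937, minus strand: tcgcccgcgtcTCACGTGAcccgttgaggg
Gla, chrX:134601215-134601244, minus strand: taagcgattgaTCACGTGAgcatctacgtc
Mcoln1, chr8:3500462-3500491, plus strand: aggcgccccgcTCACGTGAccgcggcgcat

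The log2 fold changes of these 7 genes ran from -0.21 for *Atp6v1a* to 0.21 for *Mcoln1*, with a median of 0.01, 2 below 0 and 5 above, of which *Gla*, *Atp6v0d1* and *Ctsa* were close to 0, at 0.00012, 0.010 and 0.015. Among the 33 tested members with a promoter and without TCACGTGA the median was -0.138, with 23 below 0 and 10 above. For CACGTG the median was -0.0468 over the 12 members with it, 7 below 0 and 5 above, and -0.115 over the 28 tested members with a promoter and without it, 18 below 0 and 10 above. Over the 4 libraries the medians were 0.064 with TCACGTGA and -0.049 without it, and 0.0221 with CACGTG and -0.0379 without it. These differences describe small sets and were not tested, and a match to the letters is not a site of binding. The promoter entry of *Atp6v0a4* held neither motif. Members without a promoter entry were *Atp6v1b2*, *Atp6v1c1*, *Atp6v1g1*, *Atp6v1h*, *Atp6v0a2*, *Atp6v0d2*, *Atp6ap1l*, *Ctsb* and *Atp6v0c-ps2*.

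A wider list of 103 genes of the pathway, none of them members, was tested in the same fit. Of the 103, 0 were called in either direction by edgeR, and DESeq2 put 0 under an adjusted p of 0.05. With reads on Y-linked genes as a covariate, 4 of the 103 had an edgeR Benjamini-Hochberg adjusted p under 0.05, all lower and 0 past the fold threshold, or 3.88%, beside 1.27% of all genes lower. They were *Fnip2* (0.00738), *Rragd* (0.0158), *Ncoa7* (0.0309) and *Mitf* (0.042), the first 3 chosen after their values were seen, with edgeR log2 fold changes of -0.78 to -0.60. With the 4 libraries *Fnip2* alone was under it, at an edgeR Benjamini-Hochberg adjusted p of 0.0358 and a log2 fold change of -0.64, which is 0.971% of the list, beside 0.245% of all genes lower and 0.447% higher. With all 6 libraries and no covariate *Fnip2*, *Rragd* and *Ncoa7* overlapped between the groups, at edgeR Benjamini-Hochberg adjusted p of 0.517, 0.646 and 0.554. At an unadjusted p under 0.05 in edgeR, 9 were lower and 2 higher, or 8.74% and 1.94%, beside 5.05% and 4.62% of all tested genes. The median log2 fold change was -0.106, with 69 genes below 0 and 34 above, beside -0.0096 over all genes. Under library size only it was 0.0211, with 44 below and 59 above, beside 0.121 over all genes, and with the 4 libraries it was -0.0507, beside 0.0164. Library by library and relative to all genes, the median was -0.04, -0.01 and 0.05 in AT2CTRL and -0.02, -0.02 and -0.20 in AT2CAB, so that the groups overlapped and AT2CAB replicate 3 was the lowest. The AT2CAB libraries were lower without overlap for 19 of the 103 and higher for 4, or 18.4% and 3.88%, beside 10.1% and 7% of all genes. With unscaled levels the counts were 8 and 16, or 7.77% and 15.5%, beside 3.91% and 12.6% of all genes. They were 44 and 13 with the 4 libraries, or 42.7% and 12.6%, beside 26.5% and 19.5% of all genes.

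The largest differences without overlap on the lower side were those of *Mitf*, *Rab38* and *Npc2*.

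*Mitf*, a transcription factor related to TFEB, had 8.81, 9.84 and 11.1 RPKM in AT2CTRL and 8.08, 6.02 and 5.68 RPKM in AT2CAB (log2 fold change -0.59, edgeR Benjamini-Hochberg adjusted p = 0.299). *Rab38*, a small GTPase of lysosome-related organelles, had 16.4, 13.1 and 12.6 RPKM in AT2CTRL and 12.0, 9.003 and 8.83 RPKM in AT2CAB (log2 fold change -0.50, edgeR Benjamini-Hochberg adjusted p = 0.416). *Npc2*, a cholesterol carrier of the lysosomal lumen, had 1510, 1349 and 1257 RPKM in AT2CTRL and 1132, 1004 and 833 RPKM in AT2CAB (log2 fold change -0.47, edgeR Benjamini-Hochberg adjusted p = 0.445). In each case AT2CAB replicate 1 was the highest of its group and lay nearest to AT2CTRL. With the 4 libraries the log2 fold changes were -0.54 for *Mitf*, -0.27 for *Rab38* and -0.25 for *Npc2*. With unscaled levels the groups of *Rab38* overlapped.

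On the higher side, *Galc*, which degrades galactosylceramide, had 20.3, 21.8 and 23.5 RPKM in AT2CTRL and 26.1, 32.5 and 37.6 RPKM in AT2CAB (log2 fold change 0.55, edgeR Benjamini-Hochberg adjusted p = 0.293). *Gga3*, an adaptor that sorts cargo to lysosomes, had 7.97, 7.35 and 8.21 RPKM in AT2CTRL and 8.68, 10.8 and 10.3 RPKM in AT2CAB (log2 fold change 0.34, edgeR Benjamini-Hochberg adjusted p = 0.442). *Ctso*, a cysteine cathepsin, had 8.69, 8.49 and 9.63 RPKM in AT2CTRL and 9.98, 9.66 and 10.5 RPKM in AT2CAB (log2 fold change 0.17, edgeR Benjamini-Hochberg adjusted p = 0.657). For these 3 genes all AT2CAB libraries were above all AT2CTRL libraries, by the widest margin for *Galc*, whose log2 fold change was 0.40 with the 4 libraries.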

How the data were processed

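The authors trimmed poly(A/T) tails and adaptors, aligned paired reads to mm10 with Hisat2, removed duplicates, counted on exons with featureCounts 1.5.3, and deposited raw counts per gene without normalization. Per the file headers, the counting used no option for strand, read pairs or overlapping genes, so reads on overlapping genes were dropped. The methods speak of fragments, which the headers do not show, so counts were taken as reads, and a pair may count as 2. Each pair of libraries within a group differed by more than counting noise.

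The test was the quasi-likelihood test of edgeR 4.0.16 (R 4.3.3) after TMM scaling, on genes kept by its expression filter at 10 counts, with p-values adjusted by Benjamini-Hochberg over 16723 genes. The standard error is the log2 fold change divided by the square root of F. Alternatives included DESeq2 1.42.0, limma-voom (limma 3.58.1), other scalings, filters and covariates, and each library left out in turn. RPKM used the gene lengths of the deposited table.

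The members and lists were chosen with earlier results of these data known. Named were members called by either rule, isoforms of narrow tissue distribution, the highest member of each role and the 5 largest differences in each direction without overlap (3 for the wider list). Other genes are given to account for the rest of their role or family, as marker genes, for their position, or, where so stated, after their values were seen.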

Additional observations from a re-analysis of the deposited data

How the results depend on the processing

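The number of members called lower was 0 in place of 1 with limma-voom, upper-quartile scaling, library size only, a filter of 50 counts, age as a covariate, the replicate block and the 4 libraries without Y-linked reads, and 0 without each library in turn. Members called higher numbered 0 to 1 when a library was left out, and 1 past the fold alone. Over all genes, 38 were called higher and 2 lower; these became 119 and 25 with DESeq2, 25 and 1 with limma-voom, 109 and 35 with Y-linked reads as a covariate, 710 and 85 by the fold alone, and 6 to 59 and 0 to 4 with a library left out. Genes called lower also numbered 1 with upper-quartile scaling, library size only, the filter of 50 counts or age, 5 without a filter or with the replicate block, and 8 with the 4 libraries. The V-ATPase median log2 fold change was 0.0121 with library size only, -0.0464 with upper-quartile scaling and -0.172 to -0.0768 with a library left out. The lysosomal median was 0.000901 with upper-quartile scaling, 0.0571 with library size only, -0.00588 with the filter of 50 counts and -0.13 to -0.0207 with a library left out. The *Atp6v0a4* share difference stayed between -3.31 and -2.24 percentage points with a library left out. Of 389 alternative values for 23 named genes, 6 changed sign: *Atp6v1g2* with the 4 libraries (-0.0269) and without AT2CAB replicate 3 (-0.0689 to 0.215 over libraries left out), *Atp6v0d2* (-0.104 to 1.06) and *Psap* (-0.0858 to 0.236), both lowest without AT2CAB replicate 1, and *Atp6ap1* with library size only (0.0476) and the 4 libraries (0.00444). Of all 48 tested members, 0 to 8 changed sign in each alternative. The causes were not tested. Replicate numbers did not pair the libraries: deviations of same-numbered libraries correlated at -0.24, 0.202 and -0.531, and 1 of 6 libraries correlated best with its own number. With the replicate block, 35 genes were called higher and 5 lower, the *Atp6v0a4* edgeR Benjamini-Hochberg adjusted p was 0.0962, the medians were -0.113 and -0.078, and the share difference was -2.87 percentage points (exact p = 0.25, the smallest 3 pairs allow). The *Tfe3* log2 fold change, 0.0041, was -0.0020 with this block. Depth limits *Atp6v1b1* and *Atp6v1e2*, with as few as 4 and 1 counts in a library.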
